A study of Mus musculus with 8 samples.

Results

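A set of 10 genes of the growing axon's cytoskeleton was followed in RNA of the dorsal lateral geniculate nucleus, where retinal axons meet thalamic relay neurons. They are Dcx, Dclk1, Map1b, Stmn1, Stmn2, Stmn4, Dpysl3, Crmp1, Gap43 and Marcksl1. They were taken by symbol from a matrix of 23116 genes. All 10 were found, Map1b under its older symbol Mtap1b, and all 10 were among the 15967 genes tested, which had a mean of at least 1 TPM (a level per transcript length, scaled to each library's total). The genes were proposed with the values of these libraries known, including their levels in libraries with Mbp above 1000 TPM. Those levels are therefore a description and carry no test.

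Total RNA from 8 mice was sequenced after ribosomal RNA depletion. The groups were 4 Fn14 KO mice, lacking the TWEAK receptor encoded by Tnfrsf12a, and 4 Fn14 WT mice. All were labelled C57BL/6J, of postnatal day 27 and under standard housing, and the series describes littermates of both sexes. Each mouse was 1 replicate, and the nucleus was microdissected from coronal vibratome sections. Neither the deleted part of Tnfrsf12a nor any single mouse's sex or litter is stated in the labels used here. Libraries are called KO 1 to KO 4 and WT 1 to WT 4 by their labels.

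Growing axons advance by assembling microtubules behind a motile, actin-rich growth cone. Doublecortin family and MAP1 proteins bind and steady microtubules, while stathmins bind free tubulin and favour disassembly. The collapsin response mediator proteins (CRMPs) bind tubulin and actin regulators and act downstream of semaphorins, and membrane substrates of protein kinase C (PKC) such as GAP-43 link lipid signals to actin. Most of these transcripts are abundant in young neurons and decline as circuits mature, and CRMPs, stathmins and MAP1 proteins each have relatives that persist in adult neurons.

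The libraries split before any comparison of genotype. Mbp, which encodes myelin basic protein, reached 11153 TPM in WT 1 and 13566 TPM in WT 2, whereas the other 6 libraries held 34.4 to 51.3 TPM, so no library lay near the limit of 1000 TPM. Whether WT 1 and WT 2, or the other 6, match the labelled age could not be settled from these files. The WT means and KO minus WT differences include both WT 1 and WT 2 unless stated. Tnfrsf12a was at 2.95, 1.12, 1.32 and 1.86 TPM in KO 1 to KO 4, against 4.78, 5.48, 3.67 and 0.82 TPM in WT 1 to WT 4. None of the KO libraries was as low as the library labelled WT 4. Whether that label is right could not be settled from these values, since the deleted part of Tnfrsf12a is not stated. TPM sums were 968958 to 997426 per library, and depth per library is unknown, so no counting interval can be given. The thalamic marker Tcf7l2 was detected in all 8 libraries, at 529 to 1005 TPM in KO and at 249.5, 253, 43.4 and 1074 TPM in WT 1 to WT 4.

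Doublecortin showed the widest separation of the 10. Dcx, on chromosome X from 143855842 to 143933311 on the minus strand (GRCm38, GENCODE M21), encodes the protein that steadies microtubules in migrating and young neurons. It stood at 551, 524, 432 and 619 TPM in KO 1 to KO 4, against 5.08, 9.5, 368 and 543 TPM in WT 1 to WT 4. WT 1 and WT 2 were far below the rest, WT 3 was the lowest of the other 6, and the library labelled WT 4 lay inside the KO range. The lowest of the other 6 libraries was 38.7 times the higher of WT 1 and WT 2. In bulk tissue, fewer cells of a type and less RNA per cell cannot be told apart.

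Dclk1 (chromosome 3, 55242364 to 55539068, plus strand) encodes a kinase with doublecortin domains. Its level was 434, 529, 495 and 627 TPM in KO 1 to KO 4 and 177, 163, 451 and 536 TPM in WT 1 to WT 4. WT 1 and WT 2 were again the lowest, but the lowest of the other 6 was only 2.45 times the higher of them. The ratio of Dcx to Dclk1 within a library was 0.0287 in WT 1 and 0.0582 in WT 2, and ran from 0.815 to 1.27 in the other 6.

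Map1b (chromosome 13, 99421446 to 99516540, minus strand) encodes the microtubule-associated protein of early axons. It was measured at 1274, 1508, 1418 and 1783 TPM in KO 1 to KO 4, against 717, 634, 982 and 1381 TPM in WT 1 to WT 4. This was the smallest separation among the members whose libraries did not overlap, with the lowest of the other 6 at 1.37 times the higher of WT 1 and WT 2. Map1b was the most abundant of the 10 in WT 1 and WT 2, where Dcx was the least abundant. In the other 6 libraries Map1b ranked from 3 to 5.

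Promoter windows of these 2 genes are shown because they stand at the ends of that range, the widest and the narrowest separation without overlap. Each run is the 250 bases before a RefSeq transcription start (GRCm38.p6), 5′ to 3′ on the gene's strand, with matches to 5 short motifs in capitals. For Dcx the more upstream of its 2 starts was taken, at chrX:143933220-143933469, and for Map1b chr13:99516603-99516852, both minus strand.
Dcx: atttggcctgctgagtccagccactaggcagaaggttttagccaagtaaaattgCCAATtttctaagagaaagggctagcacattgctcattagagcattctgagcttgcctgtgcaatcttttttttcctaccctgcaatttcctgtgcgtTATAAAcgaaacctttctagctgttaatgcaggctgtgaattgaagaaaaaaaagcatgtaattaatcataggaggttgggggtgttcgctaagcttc
Map1b: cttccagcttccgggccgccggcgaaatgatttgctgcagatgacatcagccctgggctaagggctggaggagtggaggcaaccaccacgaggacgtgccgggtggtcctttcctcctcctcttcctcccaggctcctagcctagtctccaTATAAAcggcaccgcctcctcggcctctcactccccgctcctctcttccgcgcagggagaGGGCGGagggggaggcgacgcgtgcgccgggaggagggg
The motifs searched, on both strands, were TATAAA and CCAAT and also GGGCGG, with CAGCTG and finally ACAAAG, none of which is part of another. Both windows hold TATAAA, which 12.4% of 32851 RefSeq windows of this length hold. CCAAT was found in the Dcx window and in 33.8% of all windows, and GGGCGG in the Map1b window and in 32.7%. The windows differ in base composition, with a GC content of 41.6% and 3 CpG pairs for Dcx, 66.4% and 19 pairs for Map1b, and a median over all windows of 52.4% and 6 pairs. RefSeq windows of 5 of the 10 members were at hand. Among those 5, TATAAA was found for 2 (Dcx and Map1b), CCAAT for 3 (Dcx, Dclk1 and Marcksl1), GGGCGG for 2 (Map1b and Crmp1) and ACAAAG for 2 (Dcx at its other start, and Crmp1). CAGCTG was found in none of the 5 and in 13.0% of all windows, and ACAAAG in 16.5%. These matches are letters in a window and show no binding.

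The 3 stathmins differed in their pattern over the libraries. Stmn1 (chromosome 4, 134468320 to 134473843, plus strand), the cytosolic stathmin that holds free tubulin, was at 2986, 2624, 2193 and 2359 TPM in KO 1 to KO 4 and 402, 501, 1865 and 2560 TPM in WT 1 to WT 4. Stmn2 (chromosome 3, 8509360 to 8561606, plus strand), the membrane-anchored stathmin of growth cones, was at 1518, 2019, 1783 and 1938 TPM in KO 1 to KO 4 and 367, 358, 1381 and 1853 TPM in WT 1 to WT 4. For both genes WT 1 and WT 2 were the lowest libraries, with the lowest of the other 6 at 3.72 and 3.76 times the higher of the pair. Stmn4 (chromosome 14, 66344296 to 66361680, plus strand), a neuronal stathmin, was at 241, 263, 223 and 273 TPM in KO 1 to KO 4 and 236, 276, 193 and 263 TPM in WT 1 to WT 4. Stmn4 was the member in which WT 1 and WT 2 lay among the other 6. After median-of-ratios scaling, added after seeing the data, Stmn4 was instead higher in both than in any other library. It ranked 4 among the members in WT 1 and WT 2 and 10 in each of the other 6.

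Ratios within a library do not depend on its scaling. Stmn1 over Stmn4 was 1.7 in WT 1 and 1.82 in WT 2 and ran from 8.66 to 12.4 in the other 6. Stmn2 over Stmn3, another neuronal stathmin, was 0.374 and 0.361 in WT 1 and WT 2, against 1.39 to 2.35. Stmn3 itself stood at 983 and 990 TPM in WT 1 and WT 2, inside the range of 825 to 1218 TPM of the other 6.

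**Figure D1:**
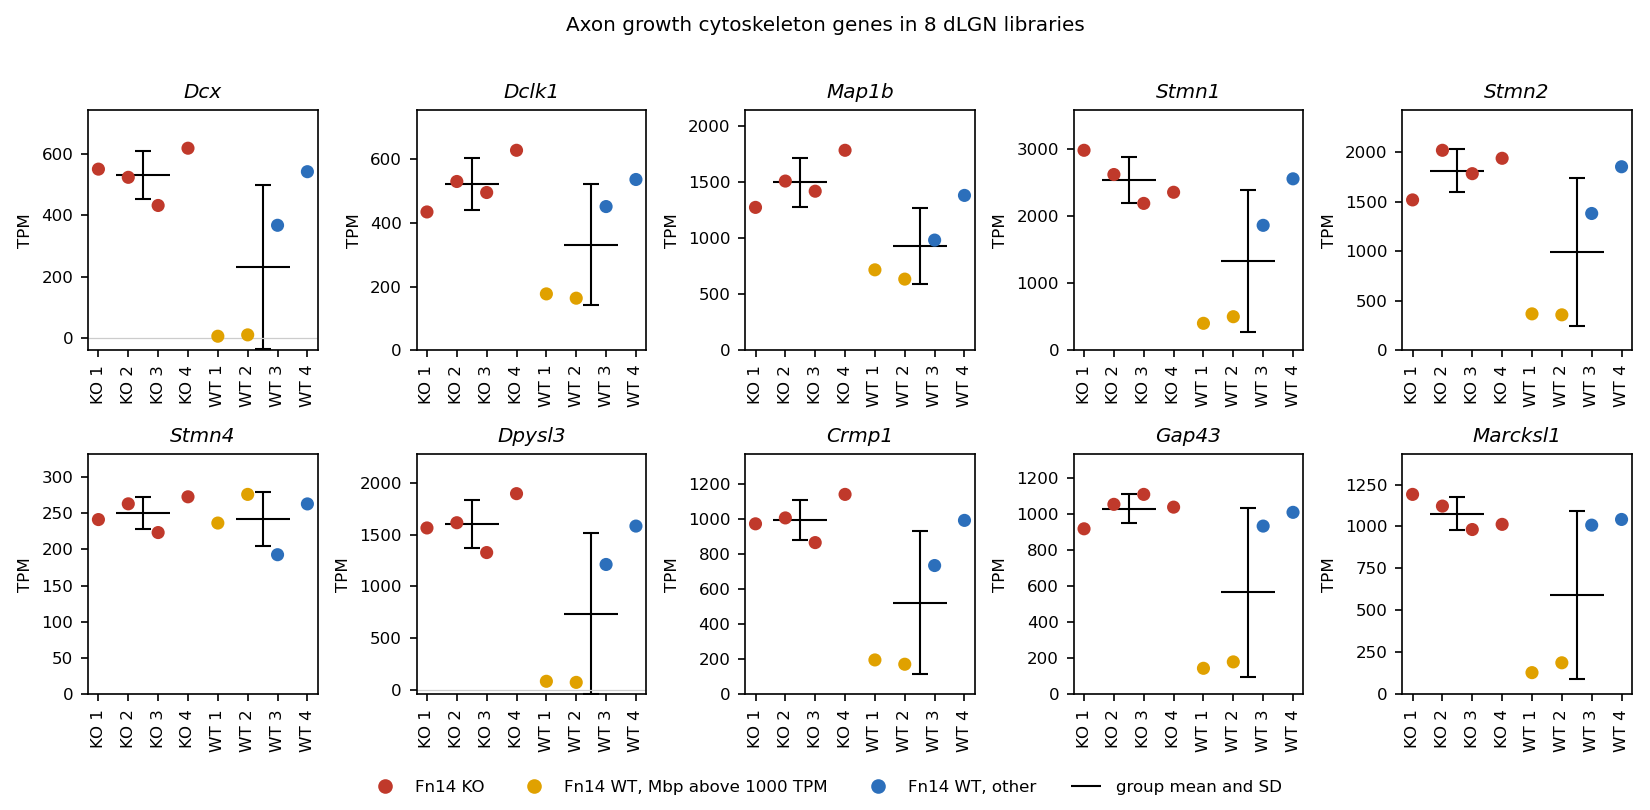
Level in TPM (y axes, linear) of the 10 genes in each library (x axes), with KO libraries in red, WT 1 and WT 2 in yellow and WT 3 and WT 4 in blue; black bars are the group mean and SD (n = 4 each), and the lower SD bar of WT passes below 0 for Dcx and Dpysl3. In 9 genes WT 1 and WT 2 lie below the other 6 libraries, and in Stmn4 they lie among them.

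Both CRMP members were low in WT 1 and WT 2, by different amounts. Dpysl3 (chromosome 18, 43320984 to 43438286, minus strand), which encodes CRMP4, was at 1566, 1616, 1328 and 1898 TPM in KO 1 to KO 4 and 82.8, 72.2, 1213 and 1584 TPM in WT 1 to WT 4. Crmp1 (chromosome 5, 37241940 to 37292133, plus strand) was at 975, 1009, 868 and 1143 TPM in KO 1 to KO 4 and 197, 172, 737 and 995 TPM in WT 1 to WT 4. The lowest of the other 6 was 14.7 times the higher of WT 1 and WT 2 for Dpysl3 and 3.74 times for Crmp1. Dpysl3 ranked from 2 to 4 among the members in the other 6 libraries and 9 in both WT 1 and WT 2. Crmp1 overlaps Evc on the opposite strand, which stood at 3.66 to 6.08 TPM in KO and 3.57 to 6.05 TPM in WT. Whether counting used strand is not known here, so their reads may be mixed.

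The membrane substrates of PKC completed the set. Gap43 (chromosome 16, 42248442 to 42340651, minus strand), a main protein of the growth cone membrane, was at 920, 1056, 1111 and 1040 TPM in KO 1 to KO 4 and 145, 180, 935 and 1011 TPM in WT 1 to WT 4. Marcksl1 (chromosome 4, 129513581 to 129515985, plus strand), a lipid- and actin-binding relative of MARCKS, was at 1191, 1122, 982 and 1013 TPM in KO 1 to KO 4 and 129, 188, 1008 and 1042 TPM in WT 1 to WT 4. They were the steadiest of the 10 outside WT 1 and WT 2, with a coefficient of variation over the other 6 libraries of 7.25% for Gap43 and 7.59% for Marcksl1. The lowest of the other 6 was 5.1 and 5.22 times the higher of WT 1 and WT 2. A pseudogene row, Marcksl1-ps4, named after its values were seen, stood at 3.64 to 8.56 TPM in KO and 0 to 8.82 TPM in WT.

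Together the 10 genes held 0.254% and 0.264% of all TPM in WT 1 and WT 2 and 0.916% to 1.27% in the other 6. In 9 of the 10, WT 1 and WT 2 lay below all other libraries, an order that 40.5% of the 15967 tested genes also had. After median-of-ratios scaling the same count was 9 of 10, beside 29.3% of tested genes, and 31.1% lay above. The lowest of the other 6 was at least 2 times the higher of the pair in 8 members (10.9% of tested genes), at least 4 times in 4 (4.0%) and at least 10 times in 2 (1.27%). Nothing is read from these shares, since the genes were proposed with this split known. Ordered by that ratio the members ran Dcx, Dpysl3, Marcksl1, Gap43, Stmn2, Crmp1, Stmn1, Dclk1, Map1b and Stmn4. Marcksl1 and Gap43 (5.22 and 5.1), and Stmn2, Crmp1 and Stmn1 (3.76, 3.74 and 3.72), are neighbours that this order does not set apart.

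KO was compared with WT by limma on log2(TPM + 1) over all 15967 genes, two-sided, with Benjamini-Hochberg adjustment at 0.05. No gene passed as higher (0.0% of tested genes) or lower (0.0%), and none of the 10 members passed. At an unadjusted p under 0.05 limma had 851 genes higher (5.33%) and 372 lower (2.33%). The 851 held 2 members, Map1b (limma unadjusted p = 0.0213) and Crmp1 (limma unadjusted p = 0.0465), and since the members were chosen on these libraries nothing is read from that count. All KO libraries lay above all WT libraries for 387 genes (2.42%) and below them for 147 (0.921%), and for 0 of the 10 members in either direction. Among 19 alternatives, members passed under limma's array weights only, which count WT 3 and the library labelled WT 4 for little (0.13 and 0.138), with 9 of 10 higher beside 41.1% of all tested genes. A p that misses the threshold does not show that KO and WT did not differ.

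The log2 differences of all 10 members were above 0, as were 60.1% of all tested genes. Their median was 1.33, and that of all tested genes 0.1. Dcx averaged 532 ± 77.5 TPM in KO and 231 ± 268 TPM in WT (SD, n = 4 each). Its log2 difference was 3.14 (SE 1.44, limma adjusted p = 0.429), and 2.04 without WT 1 or 2.31 without WT 2. Dpysl3 averaged 1602 ± 234 TPM in KO and 738 ± 778 TPM in WT, with a log2 difference of 2.27 (SE 1.03). The next 5, Marcksl1, Gap43, Stmn1, Crmp1 and Stmn2, had log2 differences of 1.42, 1.37, 1.35, 1.32 and 1.24. Dclk1 and Map1b had 0.84 and 0.74, and all of these had the same limma adjusted p of 0.429. In WT the SD was larger than the mean for Dcx and Dpysl3, with WT 1 and WT 2 at 1 end and the other 2 WT libraries at the other.

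Stmn4 averaged 249.9 ± 22.1 TPM in KO and 242 ± 36.7 TPM in WT (SD, n = 4 each). Its log2 difference was 0.06 (SE 0.15, limma adjusted p = 0.845). Its sign turned to −0.06 under median-of-ratios scaling, to −0.02 with array weights and to −0.05 without WT 3.

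Without WT 1 and WT 2 the differences were small. The 4 KO libraries minus WT 3 and the library labelled WT 4 gave a median log2 difference of 0.19 over the members, and of −0.003 over all tested genes. Map1b had the largest at 0.35 (SE 0.20), then Dcx at 0.24 (SE 0.21), Crmp1 at 0.22 (SE 0.18) and Stmn1 at 0.21 (SE 0.20). Gap43, Dclk1 and Marcksl1 had 0.08, 0.07 and 0.07, and no member passed in limma (adjusted p = 1.0 for each after rounding, and 0 of 10 at an unadjusted p under 0.05). All 10 differences were above 0, against 49.2% of tested genes. Nothing is read from that count, since the members were proposed with these libraries known. WT 3 was above the median of the 6 libraries in 0 members, and the library labelled WT 4 in 8. Nothing is read from these counts either, as no share over all tested genes was taken.

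Between the 2 remaining WT libraries the levels were unequal. WT 3 was below all 4 KO libraries in 7 members, an order that 17.5% of tested genes had. It was below the library labelled WT 4 in all 10 members. No share over all tested genes was taken for that order, so nothing is read from it. The library labelled WT 4 lay inside the KO range in all 10, as in 62.3% of tested genes. The sum over 8 thalamic relay neuron markers was also lowest in WT 3, at 319.5 TPM, although 3 of the 8 genes were lowest there (Tcf7l2, Gbx2 and Rora, the last 2 singled out after their values were seen). The list summed to 1514, 1644, 964 and 2096 TPM in KO 1 to KO 4 and 1495, 1328 and 1811 TPM in WT 1, WT 2 and the library labelled WT 4, with none at 0. Their part in the low levels of WT 3 was not tested.

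**Figure D2:**
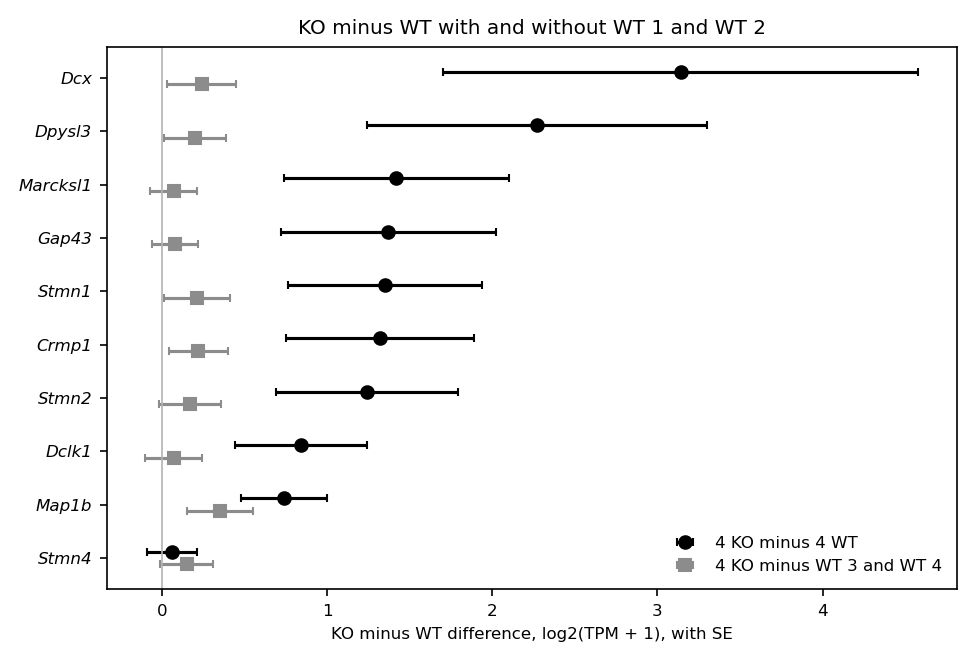
KO minus WT difference on the log2(TPM + 1) scale (x axis) for each gene (rows), with SE bars; circles use all 8 libraries and squares leave out WT 1 and WT 2. With all libraries Dcx is at 3.14 and Stmn4 at 0.06, and without WT 1 and WT 2 every member lies between 0.07 and 0.35.

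Among the other 6 libraries the members varied by a median coefficient of variation of 14.4%, from 7.25% for Gap43 to 19.0% for Map1b. Tested genes of at least 100 TPM over those libraries, 2111 in all, had a median of 11.7%. KO 4 was the highest of the 6 for 6 members and WT 3 the lowest for 7. No share over all tested genes was taken for these counts, so they are not read as a trait of the members. KO 1 held the highest values of Stmn1 and Marcksl1 and the lowest of Gap43 and Dclk1. The members therefore did not share 1 order over these 6 libraries.

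Relatives of the members, 10 genes listed by family, differed by branch. In 8 of the 10 WT 1 and WT 2 lay below the other 6, and in 1 above them, against 40.5% and 22.5% of all tested genes. After median-of-ratios scaling these were 6 and 1, beside 29.3% and 31.1% of tested genes, with Dclk2 and Map1s no longer below. None passed in limma between KO and WT, with 9 above and 1 below 0, a median log2 difference of 0.74 and of 0.01 without WT 1 and WT 2. Dpysl5, which encodes CRMP5, had 22.2 to 26.8 TPM in WT 1 and WT 2 and 437 to 649 TPM in the other 6. Dpysl4, another CRMP gene, had 20.7 to 27.5 TPM there against 139 to 171 TPM. Dpysl2, which encodes CRMP2, was much closer, with 786 to 808 TPM against 1311 to 1757 TPM, and was the most abundant CRMP gene in WT 1 and WT 2.

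Dpysl3 over Dpysl2 was 0.105 and 0.0894 in WT 1 and WT 2 and 0.85 to 1.19 in the other 6. In the doublecortin family, Dclk3 stood at 0.54 and 1.09 TPM in WT 1 and WT 2, against 8.63 to 19.5 TPM in the rest, while Dclk2 was at 140 and 116 TPM against 162 to 182 TPM. The membrane proteins Basp1 and Marcks behaved much like Gap43 and Marcksl1 in size. Basp1, a growth cone protein related in function to GAP-43, stood at 230 and 244 TPM in WT 1 and WT 2, against 1096 to 1340 TPM, and Marcks, a PKC substrate that binds actin and membrane lipids, at 191 and 217 TPM against 727 to 822 TPM. Gap43 over Basp1 varied less, at 0.63 and 0.738 against 0.755 to 0.874.

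Map1a and Map1b lay in opposite directions, also after median-of-ratios scaling. Map1a, the MAP1 gene that predominates in adult neurons, was at 66.0, 114, 216 and 129 TPM in KO 1 to KO 4 and 589, 552, 134 and 107 TPM in WT 1 to WT 4. Its highest libraries were WT 1 and WT 2, and it was the 1 relative of the 10 above the other 6 there. Map1b over Map1a was 1.22 in WT 1 and 1.15 in WT 2, and 6.57 to 19.3 in the other 6. KO 3 and WT 3 had the lowest of these, at 6.57 and 7.33. Map1b over Map2, a dendritic microtubule-associated protein, did not separate the libraries, at 2.76 and 2.46 against 1.34 to 2.65, and Map2 itself held 258 to 260 TPM in WT 1 and WT 2, against 537 to 768 TPM in the other 6.

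**Figure D3:**
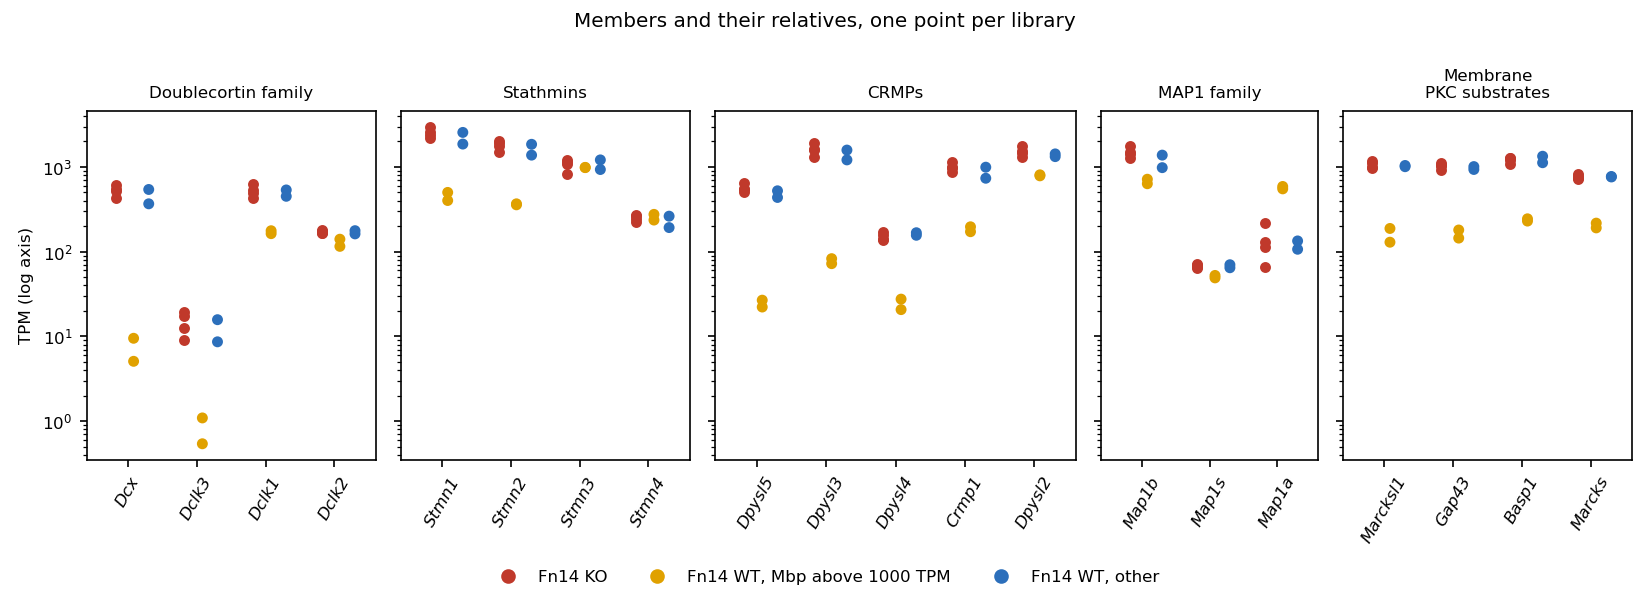
Level in TPM (log y axis) of members and relatives in 5 families (panels), 1 point per library, with KO libraries in red, WT 1 and WT 2 in yellow and WT 3 and WT 4 in blue. WT 1 and WT 2 are far below the rest for Dcx, Dpysl3 and Dpysl5, among them for Stmn3 and Stmn4, and above them for Map1a at 589 and 552 TPM.

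**Figure D4:**
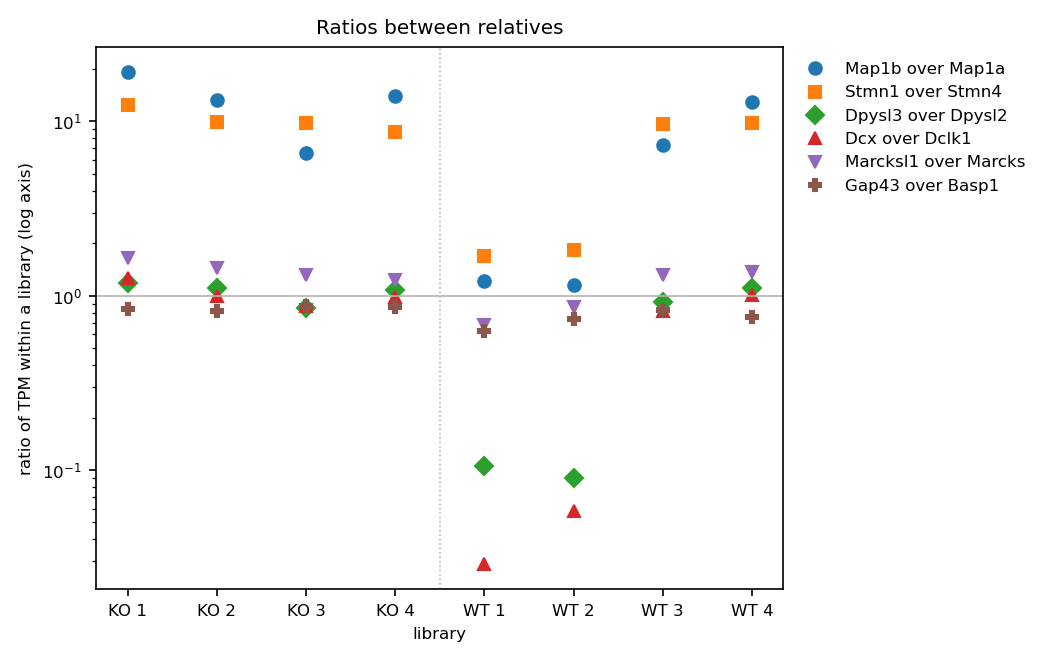
Ratio of TPM between 2 relatives within each library (log y axis), KO libraries left of the dotted line and WT libraries right of it; the horizontal line marks 1. Map1b over Map1a is 1.22 and 1.15 in WT 1 and WT 2 and at least 6.57 elsewhere, while Gap43 over Basp1 stays between 0.63 and 0.874.

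Other microtubule-associated and plus-end proteins leaned the same way less steeply. Of 25 genes listed, 22 were tested and 3 were not analysed here (Map6d1, Map7 and Tppp). None passed in limma, with 15 above and 7 below 0, a median log2 difference of 0.38 and of 0.07 without WT 1 and WT 2. For 15 of the 22 (68.2%, against 40.5% of all tested genes) WT 1 and WT 2 lay below the other 6. They lay above for 5 (22.7%, against 22.5%). In 0 of the 22 was the separation 4 times or more. After median-of-ratios scaling 12 lay below and 6 above, beside 29.3% and 31.1% of tested genes. Mapt, which encodes the axonal protein tau, stood at 215 and 219 TPM in WT 1 and WT 2, against 853 to 1315 TPM. Map4, a microtubule-associated protein of many cell types, was at 477 and 467 TPM against 248 to 421 TPM, and Clasp2, a plus-end protein, at 443 and 419 TPM against 280 to 353 TPM.

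Regulators of growth cone actin were mixed. All 25 were tested and none passed, with 20 above and 5 below 0 and a median log2 difference of 0.42, or 0.07 without WT 1 and WT 2. For 15 of 25 WT 1 and WT 2 lay below the other 6, and for 3 above, against 40.5% and 22.5% of all tested genes. After median-of-ratios scaling 12 lay below and 5 above, beside 29.3% and 31.1%. The actin genes Actb and Actg1 were at 1987 and 2145 TPM and at 1051 and 1056 TPM in WT 1 and WT 2, against 3191 to 3712 TPM and 2568 to 3425 TPM. Tmsb4x, which binds free actin, was at 817 and 1066 TPM against 1309 to 2764 TPM, and the severing factor gene Cfl1 at 907 and 948 TPM against 887 to 1201 TPM. Tmsb10, named after its values were seen, was the 1 gene of the list separated by 4 times or more, at 48.1 and 84.7 TPM against 561 to 747 TPM.

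Kinases, phosphatases and motors that act on these proteins lay more often above than below in WT 1 and WT 2. Of 28 genes tested none passed, with 13 above and 15 below 0 and a median log2 difference of −0.03, or 0.10 without WT 1 and WT 2. WT 1 and WT 2 lay above the other 6 for 12 (42.9%, against 22.5% of all tested genes) and below for 6 (21.4%, against 40.5%). After median-of-ratios scaling 17 lay above and 4 below, beside 31.1% and 29.3%. The motor genes Kif1a, Kif5c and Dync1h1 and the dynein regulator gene Pafah1b1 all overlapped between the libraries as deposited. After that scaling Kif5c alone of the 4 did. Pafah1b1, whose product LIS1 regulates dynein and whose loss, like that of Dcx, disturbs neuronal migration, stood at 517 and 500 TPM in WT 1 and WT 2, against 369 to 530 TPM in the other 6.

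Genes nearest to Dcx were sought by the root mean square difference between log2 profiles over the 8 libraries, after each gene's mean was taken away. The nearest of 15966 was St8sia2, which makes polysialic acid on NCAM, at 0.346, and it stood at 0.89 and 0.86 TPM in WT 1 and WT 2 against 113 to 242 TPM. The RNA-binding protein gene Mex3a followed at 0.402, the glypican gene Gpc2 at 0.432 and the tubulin gene Tubb2b at 0.461. Islr2, Pak6, H19, Nnat, 2610109H07Rik and Kcnh4 completed the 10, from 0.52 to 0.65, beside a median distance of 2.51 over all genes. Among the members, Dpysl3 was the nearest to Dcx, at 0.774 and rank 14, and Stmn4 the farthest, at 2.63 and rank 10195. Map1b ranked 2606, and the other 6 members from 183 to 1128. These ranks nearly repeat the order of the members by the separation of WT 1 and WT 2. Since the members were proposed with that split known, nothing is read from the ranks.

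The neighbours changed when WT 1 and WT 2 were left out. Over the 6 other libraries the nearest 5 were Ints12, Mknk2, Mesdc1, Megf9 and Bach2, at 0.0339 to 0.0482, beside a median of 0.331. None of these was among the 10 above, and Megf9 lay the other way in WT 1 and WT 2, at 268 and 247 TPM against 76.6 to 121 TPM. Dpysl3 was at rank 21 of 15966, with a distance of 0.0675, and Crmp1 at rank 20, with 0.0673, beside its rank of 362 over all 8 libraries. Stmn4, the farthest member over 8 libraries, was at rank 121 (0.104), and Gap43 was at rank 3964 (0.255) beside 225 over 8. With 6 libraries many genes come close to any profile, so these distances are a description.

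Markers of cell types and stages also differed between WT 1 and WT 2 and the other 6. Of all tested genes 40.5% lay below and 22.5% above in WT 1 and WT 2. After median-of-ratios scaling these shares were 29.3% and 31.1%. The 18 other markers of young neurons summed to 2995 and 2874 TPM in WT 1 and WT 2 and 14260 to 17370 TPM in the other 6, with WT 1 and WT 2 lowest for 17 of 18 (15 after median-of-ratios scaling) and none at 0. The most abundant, Tubb2b, stood at 106 and 115 TPM in WT 1 and WT 2, against 3033 to 4029 TPM, and Tubb2a at 933 and 907 TPM against 1970 to 3045 TPM. The 13 mature neuron markers analysed summed to 9396 and 8466 TPM in WT 1 and WT 2 against 2094 to 3376 TPM, with WT 1 and WT 2 highest for 11 and lowest for 0. Snap25, a synaptic membrane fusion protein, was at 1767 and 1607 TPM against 130 to 275 TPM.

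The sums of the glial marker lists were higher in WT 1 and WT 2, though not every marker was. Of all tested genes 22.5% lay above the other 6 in both, or 31.1% after median-of-ratios scaling. The 8 mature oligodendrocyte and myelin markers analysed, of 11 listed, summed to 27590 and 34720 TPM in WT 1 and WT 2 and to 61.9 to 94.9 TPM in the other 6, with all 8 highest in WT 1 and WT 2 and Opalin at 0 in all of the other 6. The 8 markers of oligodendrocyte precursors and early oligodendrocytes summed to 783 and 953 TPM in WT 1 and WT 2, against 209.6 to 340.4 TPM. For 6 of these 8 WT 1 and WT 2 lay above the other 6, while the precursor markers Pdgfra and Cspg4 overlapped, Pdgfra with 43.6 and 50.6 TPM against 40.1 to 76.4 TPM. After median-of-ratios scaling 7 of the 8 lay above, and Cspg4 no longer overlapped. The 5 astrocyte markers analysed, of 8 listed, summed to 2556 and 2403 TPM against 409 to 722 TPM, with 3 of 5 above and Aldh1l1 and Slc1a3 overlapping. These 4 overlapping genes were singled out after their values were seen. The 7 microglia markers summed to 298 and 328 TPM against 121 to 155 TPM, with all 7 above. The 10 neural progenitor and dividing cell markers summed to 127 and 169 TPM in WT 1 and WT 2 against 381 to 687 TPM. WT 1 and WT 2 were lowest for 9, beside 40.5% of all tested genes, with Eomes at 0 in WT 1. The part of these cell types and stages in the levels of the 10 members was not tested.

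Forebrain and choroid markers differed among the other 6 as well. The 7 cortical and hippocampal markers summed to 631, 189, 119 and 255 TPM in KO 1 to KO 4 and 595, 485, 129 and 145 TPM in WT 1 to WT 4, with Neurod6 at 0 in WT 1. The 7 choroid plexus and vascular markers summed to 555, 253, 151 and 191 TPM in KO 1 to KO 4 and 89.2, 112, 229 and 147 TPM in WT 1 to WT 4. KO 1 had the largest sum on both lists, and its Stmn1 and Marcksl1 values were the highest of all 8 libraries. Its Gap43 and Dclk1 values, in contrast, were the lowest outside WT 1 and WT 2. Of the 7 cortical and hippocampal markers 6 were highest in KO 1. The exception, Slc17a7, stood at 36.1 TPM there and at 524 and 411 TPM in WT 1 and WT 2. Without Prox1 and Tbr1, which other lists also hold, KO 1 summed to 349.6 TPM, below WT 1 (527 TPM) and WT 2 (415 TPM). The choroid and vascular sum of KO 1 held 404 TPM of Ttr, and 2 of the 7 genes were highest in KO 1, Ttr and the vascular marker Cldn5. The other choroid plexus markers, Kl and Folr1, were highest in WT 3. They stood at 4.26 and 7.88 TPM there, against 3.04 and 7.03 TPM in KO 1. Prox1, Tbr1, Slc17a7, Ttr, Kl and Folr1 were singled out after their values were seen. The part of neighbouring tissue in those values was not tested.

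**Figure D5:**
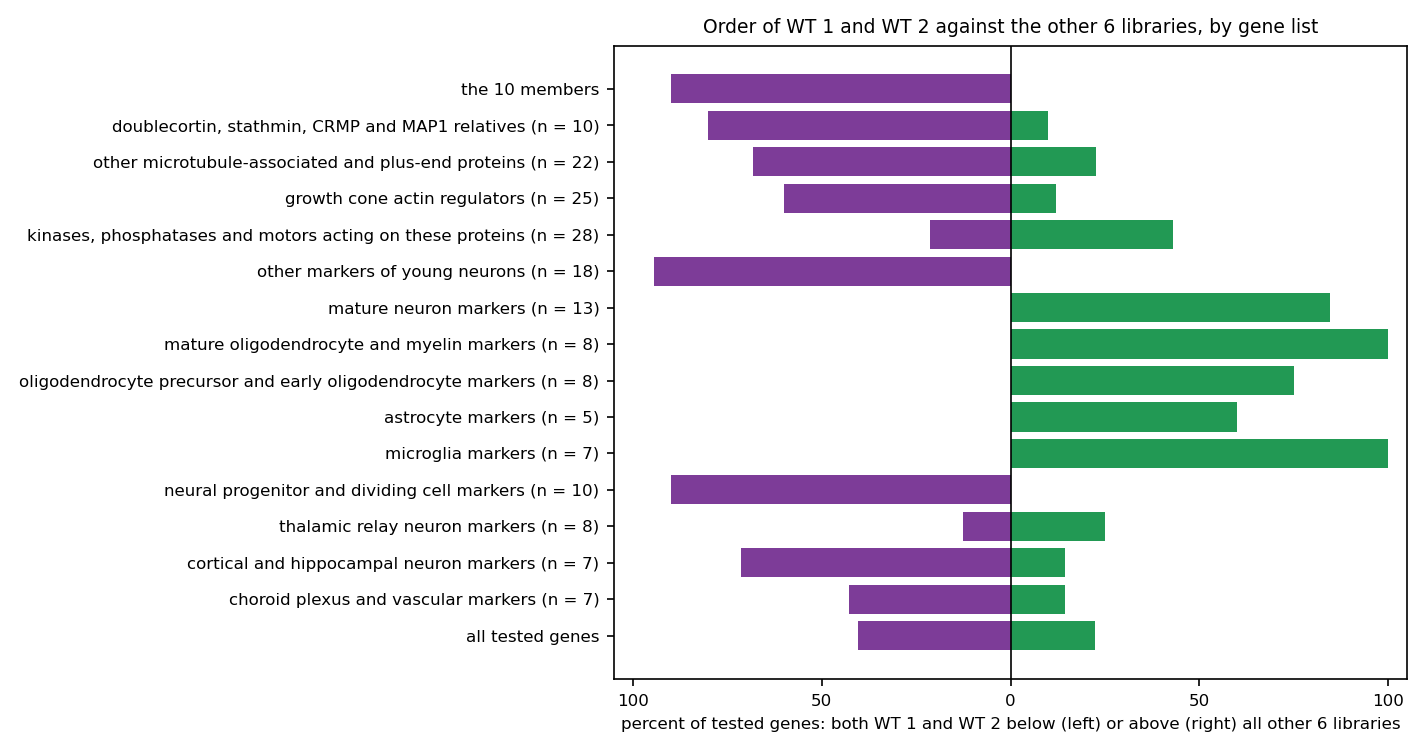
Percent of tested genes in each list (rows) for which both WT 1 and WT 2 lay below (left, purple) or above (right, green) all other 6 libraries, with all tested genes in the last row. Of the 10 members 9 lay below, as did 94.4% of other markers of young neurons, while 84.6% of mature neuron markers and all 8 myelin markers lay above, beside 40.5% below and 22.5% above over all tested genes.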

How the data were processed

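The measurements are TPM values that the authors deposited as a single matrix for 4 KO and 4 WT mice; the group means beside them were left out. BWA, edgeR 3.14.0 and the builds GRCm38 and mm10 are named, per the submitters' processing notes. Settings, strandedness and annotation: not given in the sources used here. Depth is unknown, and precision is limited by 4 mice per group.

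Of 194 member and list symbols, 173 were found as written, 10 under older symbols through RefSeq synonyms (GRCm38.p6), and 11 were not analysed here. Genes averaging at least 1 TPM were tested as log2(TPM + 1), which understates changes of low genes. The test was limma 3.58.1 in R 4.3.3, with mean-variance trend, robust estimation and no covariate. The fit was tested on simulated data. Python 3.11.15, pandas 2.3.3, numpy 2.4.6 and matplotlib 3.10.9 made tables and figures.

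Members and lists were chosen with earlier results of these data known. Named by rule were all members and their relatives, the 4 most abundant genes of each other pathway list, the 2 most abundant of each marker list, and the genes nearest to Dcx. Not every gene so chosen is reported here. Alternatives covered pseudocount, filter, scaling, variance model, array weights, a replicate block and leaving out libraries.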

Additional observations from a re-analysis of the deposited data

How the results depend on the processing

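Over 19 alternatives, the 10 log2 differences gave 190 values, of which 178 kept their direction and stayed short of the threshold. Under array weights 9 members passed (all but Stmn4), the median over the members was 2.36, and 6569 genes (41.1%) were called higher and 3807 lower, so that passing is not particular to them. Without both WT 1 and WT 2 the median was 0.19 and 2 genes passed as lower, Mir135a-2 (−3.12) and Mir199a-2 (−3.90). Without trend and robust estimation 1 gene was higher, Snora62. Leaving out 1 library gave 0 genes higher and 0 to 1 lower (Mir666, without KO 3), and a median over the members of 0.89 to 1.78. All of these few genes were named after their values were seen. Stmn4 turned to −0.06 under median-of-ratios scaling, −0.02 with array weights and spanned −0.05 (without WT 3) to 0.12 with 1 library left out. Outside array weights the members' limma adjusted p ran from 0.161 to 1.0. The median of all genes was 0.102 as deposited and −0.002 under median-of-ratios scaling.

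Replicate numbers are shared by both groups, but libraries of the same number did not deviate together (correlations of −0.1, 0.074, 0.065 and 0.027). With the replicate block 0 genes were called higher and 0 lower, and the members' median stayed at 1.33. Depth is unknown, so low levels carry no floor.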
